A study of Mus musculus with 8 samples.

Results

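Ketone body and monocarboxylate handling was followed through 8 genes in mouse kidney RNA. They were Bdh1, Bdh2 and Oxct1, which encode enzymes, and Slc16a1, Slc16a4, Slc16a6, Slc5a8 and Slc5a12, which encode transporters. They were taken by name from the 15948 genes of the deposited table, where all 8 were listed once. They were chosen by function with earlier results of these data known, among them the log2 differences between the same groups, so their group differences are given as a description and not as a test. The kidneys came from a study of Arhgef11, a guanine nucleotide exchange factor for small GTPases, in hypertension and kidney injury. The labels named 5 samples Sglt2Cre DOCA, used as controls, and 3 samples Arhgef11Sglt2 DOCA. DOCA usually stands for deoxycorticosterone acetate, a mineralocorticoid that raises blood pressure, and it was in the label of both groups. Sglt2 is the early proximal tubule glucose transporter (gene Slc5a2), whose name marks the Cre line, and the study's title speaks of a proximal tubule knockout. The labels used here state neither strain, sex, age, DOCA dose and duration nor whether each sample was a separate animal, so any p here rests on sample-to-sample spread that may be partly technical.

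Ketone bodies, mainly acetoacetate and beta-hydroxybutyrate, are small acids made from acetyl-CoA when fatty acid oxidation is high, and the kidney burns them. Bdh1 is the mitochondrial dehydrogenase that interconverts the pair, Oxct1 passes coenzyme A from succinyl-CoA to acetoacetate so that it can be oxidized, and Bdh2 is a cytosolic dehydrogenase related in name and reaction. Lactate, pyruvate and ketone bodies cross membranes through proton-coupled carriers of the Slc16 family and, at the proximal tubule brush border, through the sodium-coupled carriers Slc5a12 in the early part and Slc5a8 further along.

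All values below are normalized counts, back-calculated from the deposited log2 values. They are not corrected for transcript length and compare libraries, not genes. Log2 differences and their standard errors are on the deposited, variance-stabilized scale and come from one limma model over all genes, with a gene called at a Benjamini-Hochberg adjusted p under 0.05. Normalized totals were 43000000 to 46700000 per library. Depth estimated from the spacing of low values was 33200000 to 59600000 reads in controls and 51100000 to 58100000 in Arhgef11Sglt2 libraries. Arhgef11 itself had 3679.5 ± 161.6 in controls (SD, n = 5) and 3586.6 ± 564.1 in Arhgef11Sglt2 libraries (SD, n = 3), a log2 difference of -0.04 (SE 0.09; limma adjusted p = 0.834, two-sided exact permutation p = 0.732 over 56 splits, where 0.0179 is the smallest possible). By library it was 3629, 3479, 3682, 3680 and 3928 in controls 1 to 5 and 2935, 3919 and 3905 in Arhgef11Sglt2 replicates 1 to 3. This value, summed over the gene in all kidney cells, does not check the labels, and directions below are those of libraries as labelled. Slc5a2 had 18543.5 ± 2557.2 in controls and 14289.1 ± 3562.7 in the others (limma adjusted p = 0.214; two-sided exact permutation p = 0.0536).

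In short, 3 of the 8 genes were called lower in the Arhgef11Sglt2 libraries (Bdh1, Oxct1 and Slc16a4) and 1 was called higher (Slc16a1). Over all genes, limma called 2.22% (1.59% lower and 0.627% higher). With the libraries scaled to equal totals, on a log2(value + 10) scale, the same 4 genes were called. The table's split was 100 higher and 254 lower as described, 103 and 284 on the log2(value + 10) scale without that scaling, and 164 and 215 with it. Of the 8, 6 had a negative and 2 a positive difference. The median log2 difference was -0.52, beside -0.01 over all genes. Because the genes were chosen with this comparison known, nothing is read from these counts. In RNA from whole kidney, fewer cells of a type and less RNA per cell cannot be told apart.

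Start regions are shown for the 4 called genes, so that the windows of the gene that was higher and of those that were lower can be read side by side. They are RefSeq windows of 300 bases (250 before and 50 after the start) on GRCm38.p6, a different build from the GRCm39 the submitters' processing notes name, all on the plus strand. Of the 8 genes, 6 matched by symbol, with 7 windows, since Bdh1 has 2 starts. Capitals mark exact matches on either strand. The E-box was searched as CACGTG, the GC box as GGGCGG, the nuclear receptor half-site as AGGTCA and the HNF1 half-site as GTTAAT. For the TATA box the search used the letters TATAAA. The windows lie at chr3:104638414-104638713 (Slc16a1), chr3:107290980-107291279 (Slc16a4), chr15:4026178-4026477 (Oxct1), chr16:31422047-31422346 (Bdh1, first start) and chr16:31428503-31428802 (Bdh1, second start).
Slc16a1: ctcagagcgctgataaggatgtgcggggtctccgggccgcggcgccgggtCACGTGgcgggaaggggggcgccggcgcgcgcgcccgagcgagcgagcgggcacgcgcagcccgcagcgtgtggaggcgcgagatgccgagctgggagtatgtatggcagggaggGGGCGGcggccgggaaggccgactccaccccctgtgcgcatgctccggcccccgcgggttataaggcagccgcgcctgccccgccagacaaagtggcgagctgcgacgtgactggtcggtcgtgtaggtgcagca
Slc16a4: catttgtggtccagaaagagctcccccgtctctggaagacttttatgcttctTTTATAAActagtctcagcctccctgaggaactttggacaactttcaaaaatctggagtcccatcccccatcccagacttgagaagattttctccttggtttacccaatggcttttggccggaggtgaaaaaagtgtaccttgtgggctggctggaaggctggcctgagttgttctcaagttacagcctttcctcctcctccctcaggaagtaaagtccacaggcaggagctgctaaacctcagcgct
Oxct1: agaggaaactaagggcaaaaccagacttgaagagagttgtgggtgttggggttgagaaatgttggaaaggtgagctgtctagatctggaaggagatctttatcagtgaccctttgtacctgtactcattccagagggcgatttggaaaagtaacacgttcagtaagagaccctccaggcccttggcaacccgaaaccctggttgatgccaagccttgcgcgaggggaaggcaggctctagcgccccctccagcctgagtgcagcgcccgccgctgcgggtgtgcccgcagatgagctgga
Bdh1 first start: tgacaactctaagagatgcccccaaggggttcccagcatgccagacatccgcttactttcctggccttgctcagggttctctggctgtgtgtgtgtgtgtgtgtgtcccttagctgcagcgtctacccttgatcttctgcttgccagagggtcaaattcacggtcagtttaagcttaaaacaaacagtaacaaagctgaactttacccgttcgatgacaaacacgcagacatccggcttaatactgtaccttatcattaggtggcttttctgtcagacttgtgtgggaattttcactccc
Bdh1 second start: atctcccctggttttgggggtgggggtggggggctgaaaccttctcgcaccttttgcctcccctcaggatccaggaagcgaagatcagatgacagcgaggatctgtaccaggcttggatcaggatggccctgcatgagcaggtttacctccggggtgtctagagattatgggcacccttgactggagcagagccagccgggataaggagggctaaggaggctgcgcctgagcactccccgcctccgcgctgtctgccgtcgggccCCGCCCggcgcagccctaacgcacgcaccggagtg

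The Slc16a1 window was 73.7% G and C, against 49.3% for Slc16a4, 55.3% for Oxct1, 48.3% and 63.7% for the first and second Bdh1 starts, and a median of 52.7% over 32851 windows. The Slc16a1 window held an E-box at -200 and a GC box at -85 from the start. The Slc16a4 window held neither and instead had a pair of overlapping TATAAA matches, 1 on each strand, at -198 and -196. The Oxct1 window and the first Bdh1 window held no match to any of the 5 motifs, and the second Bdh1 window held a GC box at 15. Among all windows 7.2% held the E-box, 35.7% the GC box and 13.6% the TATA box. Of the 7 windows, 3 held a GC box: those of Slc16a1, the second Bdh1 start and Slc5a8, a gene with a negative difference that was not called. AGGTCA (16.3% of all windows) and GTTAAT (7.1%) were in none of the 7 windows. These are matches of letters and not measured sites.

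Among the enzymes, Bdh1 (ENSMUSG00000046598) had 4829, 5581, 5856, 5588 and 5764 normalized counts in controls 1 to 5 and 3240, 2923 and 2505 in Arhgef11Sglt2 replicates 1 to 3. Every Arhgef11Sglt2 library lay below every control, with control 1 the lowest of its group. The means were 5523.5 ± 405.6 (SD, n = 5) and 2889.3 ± 369.0 (SD, n = 3), 1.91-fold lower, with a log2 difference of -0.83 (SE 0.09). It had the largest log2 difference of the 8 genes.

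Oxct1 (ENSMUSG00000022186), the enzyme that commits acetoacetate to oxidation, had 55527, 50788, 66782, 66375 and 62423 in the controls. Its Arhgef11Sglt2 libraries had 41695, 38253 and 38004. The groups did not overlap, and the Arhgef11Sglt2 libraries were closer to each other (coefficient of variation 5.2%) than the controls (11.6%). The means were 60379.0 ± 7011.9 and 39317.2 ± 2063.1, 1.54-fold lower (log2 difference -0.61, SE 0.11).

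Bdh2 (ENSMUSG00000028167) had 6353, 6557, 7015, 6753 and 6353 in the controls and 4893, 5371 and 3312 in the Arhgef11Sglt2 libraries. All 3 lay below the controls, but replicate 3 stood well under the other two. The means were 6606.3 ± 282.8 and 4525.4 ± 1077.4, 1.46-fold lower (log2 difference -0.52, SE 0.12), and the gene was not called. The ratio of Bdh1 to Bdh2 within a library was 0.76 to 0.91 in the controls and 0.66, 0.54 and 0.76 in the Arhgef11Sglt2 libraries, where replicate 3 met the lowest control. The ratio of Oxct1 to Bdh1 was 9.10 to 11.88 in the controls and 12.87, 13.09 and 15.17 in the Arhgef11Sglt2 libraries.

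**Figure D1:**
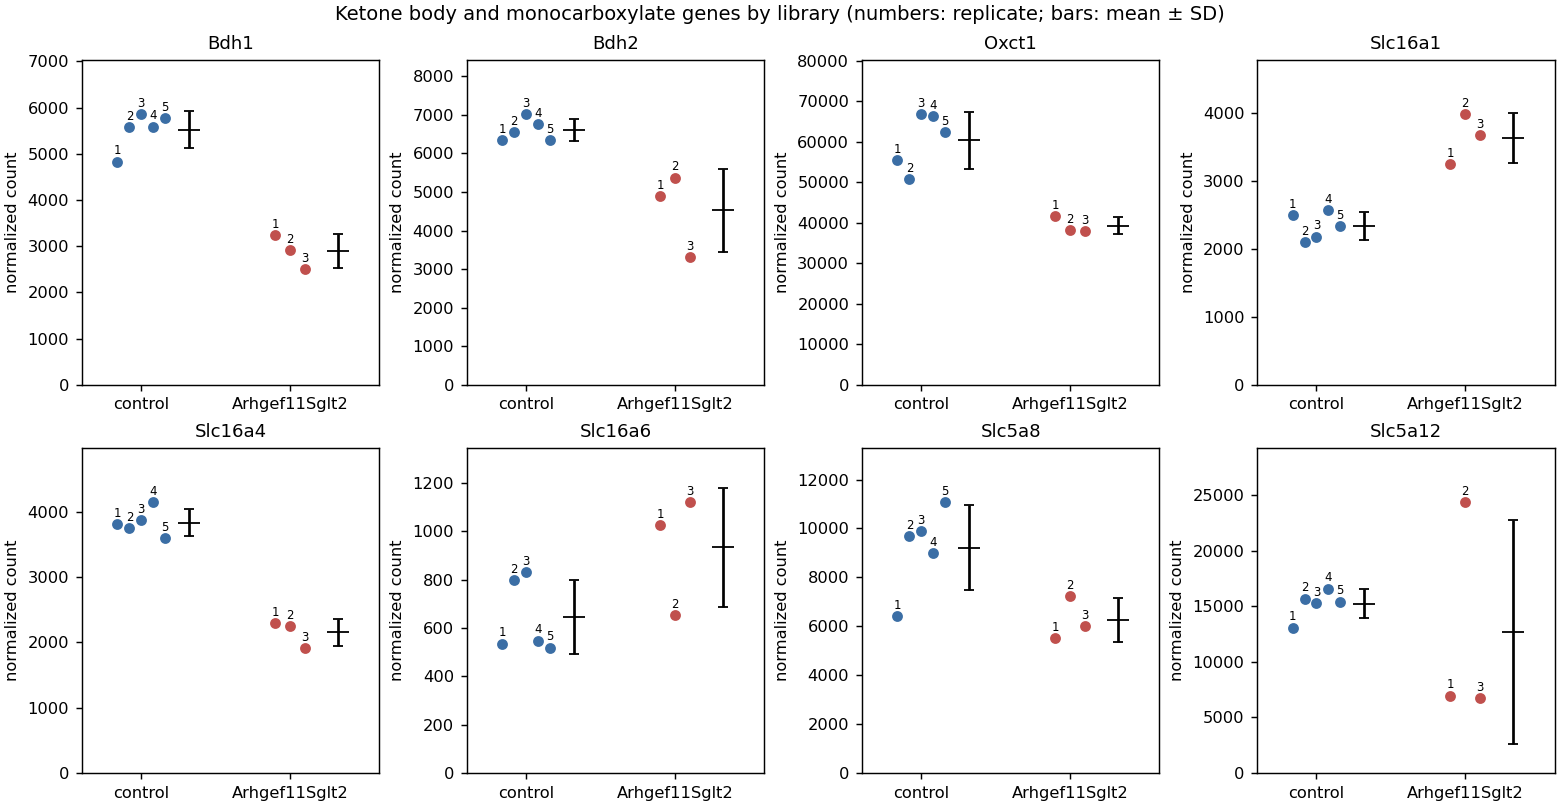
Normalized counts (vertical axes, from 0) of the 8 genes in 5 control libraries (blue) and 3 Arhgef11Sglt2 libraries (red), numbered by replicate, with the mean ± SD in black. Bdh1, Bdh2, Oxct1 and Slc16a4 were lower in every Arhgef11Sglt2 library and Slc16a1 was higher, while Slc5a12 in replicate 2 (24377) lay above all other libraries.

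Among the Slc16 carriers, Slc16a1 (ENSMUSG00000032902), the widely expressed lactate, pyruvate and ketone body carrier MCT1, had 2505, 2097, 2182, 2573 and 2340 in the controls. Its Arhgef11Sglt2 libraries had 3245, 3985 and 3682, all above the highest control. The means were 2339.4 ± 203.4 and 3637.5 ± 372.2, 1.55-fold higher (log2 difference 0.54, SE 0.08).

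Slc16a4 (ENSMUSG00000027896), a family member whose substrate is little known, went the other way. By library it was 3810, 3755, 3867, 4145 and 3592 in the controls and 2293 and 1910 in Arhgef11Sglt2 replicates 1 and 3, with replicate 2 between them. The groups were far apart compared with their spread, 3833.8 ± 201.9 against 2151.4 ± 210.4, 1.78-fold lower (log2 difference -0.71, SE 0.07). The ratio of Slc16a1 to Slc16a4 was 0.66, 0.56, 0.56, 0.62 and 0.65 in the controls and 1.42, 1.77 and 1.93 in the Arhgef11Sglt2 libraries. The ratio within a library does not depend on its scaling. It sets a gene above every control over a gene below every control, both chosen with this comparison known. Its lack of overlap therefore followed from theirs and is no added support.

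Slc16a6 (ENSMUSG00000041920), a carrier linked to ketone body export in liver, had 535, 797, 830, 548 and 519 in the controls and 1027, 652 and 1120 in the Arhgef11Sglt2 libraries. The groups overlapped: controls 2 and 3 lay above Arhgef11Sglt2 replicate 2. The means were 645.7 ± 153.9 and 933.0 ± 247.3, 1.44-fold higher (log2 difference 0.33, SE 0.14), and the gene was not called.

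**Figure D2:**
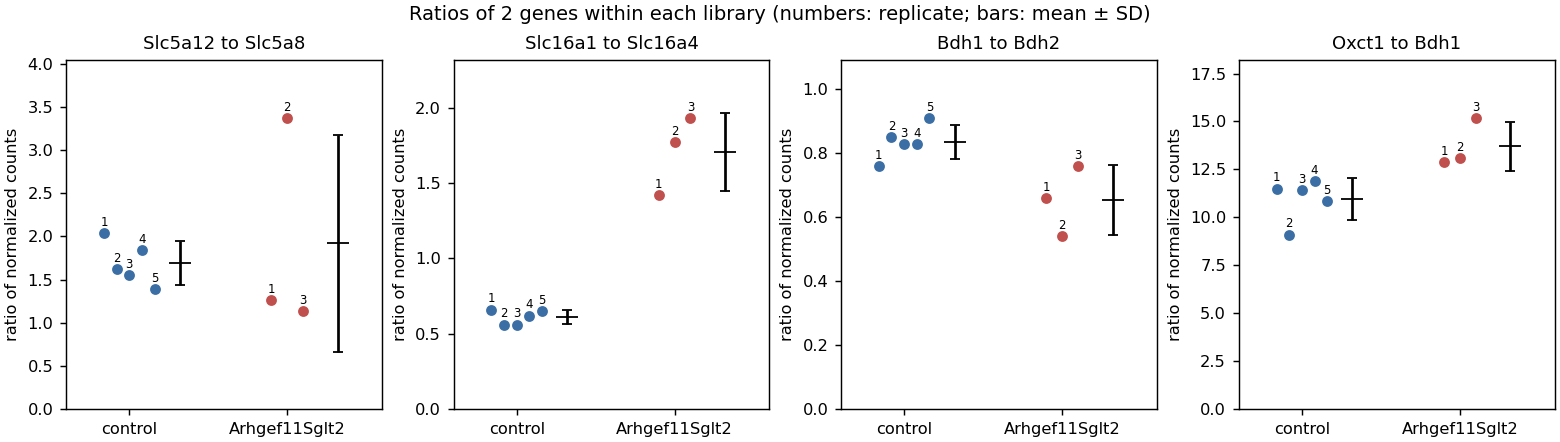
Ratios of normalized counts of 2 genes within each library (vertical axes, from 0; controls blue, Arhgef11Sglt2 red, numbered by replicate; mean ± SD in black). The Slc16a1 to Slc16a4 ratio was 0.56 to 0.66 in controls and 1.42 to 1.93 in Arhgef11Sglt2 libraries, and the Slc5a12 to Slc5a8 ratio was highest in Arhgef11Sglt2 replicate 2 (3.37).

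Of the sodium-coupled carriers, Slc5a12 (ENSMUSG00000041644), the low-affinity lactate carrier of the early proximal tubule, had 13088, 15711, 15287, 16606 and 15434 in the controls and 6966, 24377 and 6763 in the Arhgef11Sglt2 libraries. Replicates 1 and 3 lay below every control and replicate 2 above every control. The means were 15225.1 ± 1300.0 and 12702.3 ± 10111.4 (log2 difference -0.50, SE 0.34), so the difference was smaller than the spread within the Arhgef11Sglt2 group. Without replicate 2, its 1 high library, the gene was 2.22-fold lower and called, in a fit where 2.78% of all genes were called. This was the only 1 of the 8 fits with a library left out that called it, and 0 of 9 other alternatives did. Without replicate 3 the mean count was not lower (the control mean was 0.97 of the Arhgef11Sglt2 mean), while the log2 difference was -0.20.

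Slc5a8 (ENSMUSG00000020062), the high-affinity carrier further along the proximal tubule, had 6418, 9693, 9889, 9007 and 11069 in the controls and 5512, 7235 and 5993 in the Arhgef11Sglt2 libraries. Control 1 lay among the Arhgef11Sglt2 libraries and the other controls lay above them. The means were 9215.1 ± 1731.3 and 6246.5 ± 889.1, 1.48-fold lower (log2 difference -0.51, SE 0.15), and the gene was not called. Without control 1, the control that overlapped the other group, Slc5a8 was 1.6-fold lower and called, in a fit where 1.17% of all genes were called. This was the only 1 of the 8 fits with a library left out that called it, and 0 of 9 other alternatives did. The ratio of Slc5a12 to Slc5a8 was 1.39 to 2.04 in the controls and 1.26, 3.37 and 1.13 in the Arhgef11Sglt2 libraries, so the libraries of that group lay on both sides of the control range.

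In all, 4 genes were lower and 1 was higher in every Arhgef11Sglt2 library than in every control. Over all genes 8.14% were lower and 6.2% higher in that way, 14.3% together. The calls of Bdh1 and Slc16a4 held when any 1 of the 8 libraries was left out. Fits of this kind reuse the libraries whose differences were known when the genes were chosen, so they are a description and not support. Slc16a1 lost its call without control 4, control 5 or Arhgef11Sglt2 replicate 3, and Oxct1 without any 1 of controls 1, 3, 4 and 5 or of Arhgef11Sglt2 replicates 2 and 3. Those fits called fewer genes in the whole table (0.15%, 0.477% and 0.282% without control 4, control 5 and replicate 3, and 0.847% without control 3), except the fit without replicate 2. Bdh2 was called without Arhgef11Sglt2 replicate 1, where 8.36% of all genes were called, and without replicate 2.

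The library names carried numbers in a lower range (controls 1 to 3, Arhgef11Sglt2 replicates 1 and 2) and a higher range (controls 4 and 5, replicate 3), whose meaning is not stated. Within the lower and the higher range, the fold was 1.76 and 2.27 lower for Bdh1, 1.44 and 1.69 lower for Oxct1, 1.68 and 2.03 lower for Slc16a4, and 1.6 and 1.5 higher for Slc16a1. All 8 genes, called or not, kept the sign of their log2 difference in both ranges. The ranges split the same libraries whose differences were known when the genes were chosen, so this is a description and not support. For Slc5a12 the mean count was not lower in the lower range (the control mean was 0.94 of the Arhgef11Sglt2 mean). The log2 difference was -0.34 and -0.88 for Bdh2, -0.40 and -0.69 for Slc5a8, -0.15 and -1.18 for Slc5a12, and 0.14 and 0.68 for Slc16a6. Within the lower range limma called none of the 15948 genes, the 8 included (1591 had an unadjusted p under 0.05). The higher range has 1 Arhgef11Sglt2 library, assumed to vary like the 2 controls beside it. There limma called 12% of all genes, all 8 among them.

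Some markers of the proximal tubule were called lower, beside 1.59% of all genes. The 6 early proximal markers (Slc5a2, Slc34a1, Lrp2, Cubn, Slc22a6 and Gatm) summed to 370263 to 407900 normalized counts in controls and 209238 to 319523 in Arhgef11Sglt2 libraries, none was at 0, and all 6 had a negative difference. Of the 6, Slc34a1, the phosphate cotransporter, and Lrp2, the endocytic receptor megalin, were called, and the others were not. The list's mean relative to the controls was -0.73, -0.20 and -0.77 in Arhgef11Sglt2 replicates 1, 2 and 3, against -0.10 to 0.10 in the controls. On this list replicate 2, the library with the high Slc5a12, was the one closest to the controls. The 6 late proximal markers summed to 37483 to 85995 and 22409 to 31623, with 3 called lower (Slc7a13, Slc22a30 and Acy3) and 1 called higher (Slc5a10). Their mean was -0.60, -1.16 and -0.95 in replicates 1, 2 and 3, against -0.45 to 0.38 in the controls, so on this list replicate 2 was the farthest from the controls. Means of thick limb and distal tubule markers were also negative in the Arhgef11Sglt2 libraries. The mean of 4 thick limb markers was -0.18, -0.36 and -0.53 against -0.13 to 0.09 in the controls, with 1 called lower. The mean of 3 distal markers was -0.30, -0.32 and -0.48 against -0.22 to 0.22, with none called. The collecting duct, podocyte, endothelial and macrophage lists overlapped the controls, with none called. Collecting duct means were -0.58, -0.16 and 0.09 against -0.23 to 0.15, and podocyte means -0.15, 0.02 and 0.08 against -0.25 to 0.19. Endothelial means were -0.24, 0.02 and -0.01 against -0.48 to 0.31, and macrophage means 0.19, -0.09 and -0.50 against -0.13 to 0.22.

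Measured against the early proximal mean of the same library, the log2 difference was -0.26 for Bdh1, -0.14 for Slc16a4, -0.04 for Oxct1, 0.05 for Bdh2, 0.06 for Slc5a8 and 0.07 for Slc5a12. All 6 then overlapped between the groups, meaning that the Arhgef11Sglt2 libraries were neither all above nor all below the controls. Oxct1 was at 0.21, -0.44 and 0.12 in replicates 1, 2 and 3, against -0.14 to 0.10 in the controls, so they lay on both sides. Slc5a12 was at -0.33, 0.86 and -0.33 in replicates 1, 2 and 3, against -0.14 to 0.15 in the controls. Bdh1 was at 0.05, -0.61 and -0.22, against -0.11 to 0.11, so replicates 2 and 3 stayed below every control. Slc16a1 went from 0.54 to 1.11 and stayed without overlap. Slc16a6 went from 0.33 to 0.90 and still overlapped, with replicate 2 at 0.22 against -0.22 to 0.30 in the controls. This comparison was chosen after the data had been seen. The late proximal list, on which replicate 2 was at -1.16 instead of -0.20, was not used as a reference. The values above therefore hold for the early list only, also for Slc5a8, the carrier further along the tubule. Of 5 injury markers, Lcn2 and Krt20 were called higher, beside 0.627% of all genes, and the others were not. The 5 (Havcr1, Lcn2, Krt20, Vcam1 and Cdkn1a) summed to 5848 to 9814 in controls and 13173 to 34260 in Arhgef11Sglt2 libraries, none at 0. Havcr1 had 16766, 4401 and 2916 in the Arhgef11Sglt2 libraries and overlapped the controls (1693 to 4449). The part of the marker lists in the values of the 8 genes was not tested.

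**Figure D3:**
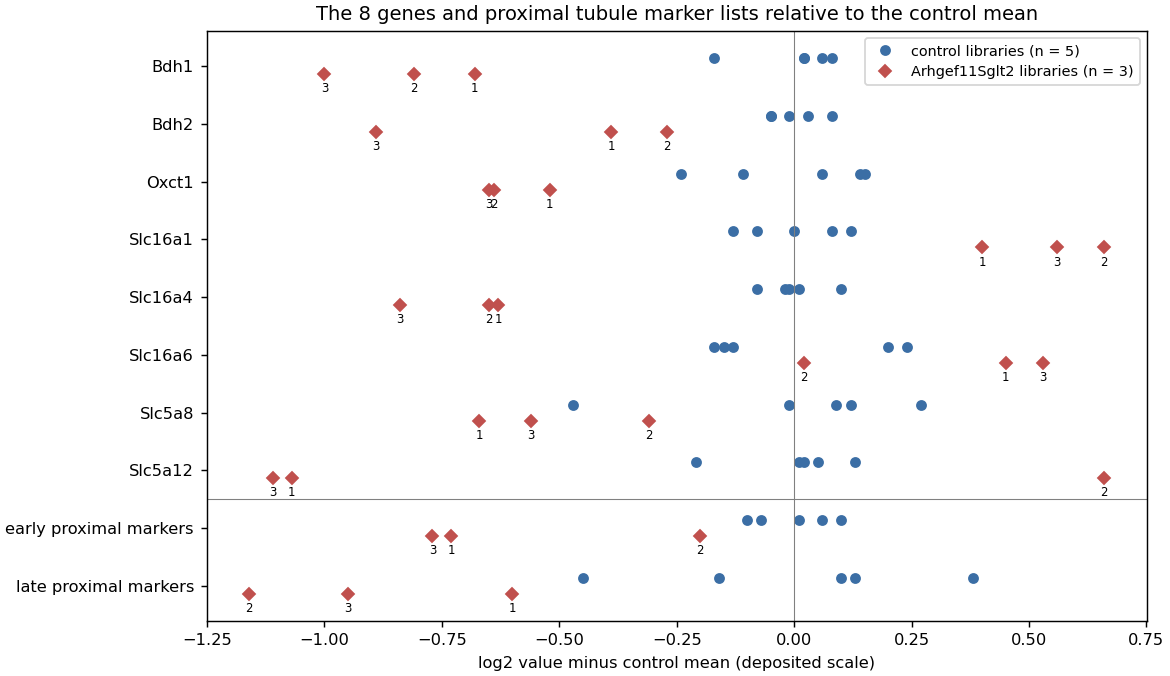
Log2 value minus the control mean (horizontal axis, deposited scale) for the 8 genes and for the mean of 6 early and 6 late proximal markers, with controls as blue circles and Arhgef11Sglt2 libraries as red diamonds numbered by replicate. Early proximal markers were at -0.73, -0.20 and -0.77 in Arhgef11Sglt2 replicates 1, 2 and 3; Slc16a1 lay to the right of all controls in all 3.

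The pathway around these genes was read from 5 lists, chosen with earlier results of these data known: 44 genes reported here, 38 of them measured, of which limma called 1 higher and 1 lower, beside 2.22% of all genes. Of the 3 measured ketone enzymes reported here, Acat1 was the only one called. Acat1, the mitochondrial thiolase that joins or splits acetoacetyl-CoA, had 18085, 19919, 20884, 19653 and 20907 in the controls and 12549, 13559 and 10728 in the Arhgef11Sglt2 libraries. It fell 1.62-fold without overlap (log2 difference -0.68, SE 0.09, limma adjusted p = 0.0154). The call was lost without control 4. Aacs, which activates acetoacetate in the cytosol, had 2832.3 ± 1177.5 and 1621.9 ± 53.9 (limma adjusted p = 0.213), with the controls spread from 1473 to 4489.

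None of the 11 other Slc16 genes and chaperones (Bsg and Emb) reported here was called in limma (6 had an unadjusted p under 0.05, as did 21.1% of all genes). Slc16a7, the high-affinity carrier MCT2, had 16923.8 ± 1217.6 and 12161.8 ± 2108.1 without overlap and was not called (limma adjusted p = 0.0575). It was called with no variance trend and without Arhgef11Sglt2 replicate 2. Slc16a12, linked to creatine transport, had a log2 difference of -0.32 (limma adjusted p = 0.1), and Slc16a13 of 0.30 (limma adjusted p = 0.165). Slc16a13 was called without Arhgef11Sglt2 replicate 1. Bsg, the chaperone that brings MCT1 to the membrane, had 16510.2 ± 1349.3 and 15438.2 ± 624.2 (limma adjusted p = 0.573), so the Slc16a1 difference had no counterpart of that size in Bsg. Emb had 1757.9 ± 77.5 and 2037.0 ± 122.9 without overlap and was not called (limma adjusted p = 0.167).

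Of 7 measured Slc5 genes, Slc5a10 was called. Slc5a10, a mannose and fructose carrier, had 4219, 4456, 3625, 3371 and 3416 in the controls and 5887, 6458 and 7046 in the Arhgef11Sglt2 libraries. It rose 1.69-fold (log2 difference 0.69, SE 0.10, limma adjusted p = 0.0173), and lost its call without control 4 or Arhgef11Sglt2 replicate 3. Slc5a9 (log2 difference -0.39, limma adjusted p = 0.119) and Slc5a3, the myo-inositol carrier (-0.32, limma adjusted p = 0.201), were not called. Slc5a9 was called without Arhgef11Sglt2 replicate 2.

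None of 12 lactate and pyruvate genes was called in limma (6 had an unadjusted p under 0.05, beside the 21.1% of all genes). Pdk4, the kinase that restrains pyruvate oxidation, had 1289, 1266, 1464, 1784 and 1028 in the controls and 2805, 6649 and 21964 in the Arhgef11Sglt2 libraries. All 3 lay above the controls, with replicate 3 far above the other two, and the limma adjusted p was 0.0504. It was called with a filter on low counts, with array weights, on both log2(value + pseudocount) scales, with equal library totals, with the library number range as a term and without Arhgef11Sglt2 replicate 1. Pdk3 (log2 difference -0.30, limma adjusted p = 0.0908), the pyruvate carrier subunit Mpc2 (-0.32, limma adjusted p = 0.178) and the D-lactate dehydrogenase Ldhd (-0.33, limma adjusted p = 0.192) were not called. Pdk3 was called with array weights and without Arhgef11Sglt2 replicate 1. Ldha and Ldhb, the subunits of L-lactate dehydrogenase, had log2 differences of 0.15 and -0.16 (limma adjusted p = 0.563 and 0.408).

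None of 5 receptor and regulator genes was called in limma (1 had an unadjusted p under 0.05). Hcar2, a receptor for beta-hydroxybutyrate, was low: 15, 16, 12, 13 and 8.03 in controls 1 to 5, and 33.5, 21.3 and 26.2 in Arhgef11Sglt2 replicates 1 to 3 (limma adjusted p = 0.134). Hcar1, the lactate receptor, had 113.2 ± 34.8 and 71.3 ± 22.5 (limma adjusted p = 0.287). The coactivator Ppargc1a had 5941.5 ± 161.0 and 5113.1 ± 1000.6 (limma adjusted p = 0.272), and the mitochondrial deacetylase Sirt3 2623.2 ± 198.7 and 2343.7 ± 434.4 (limma adjusted p = 0.434).

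**Figure D4:**
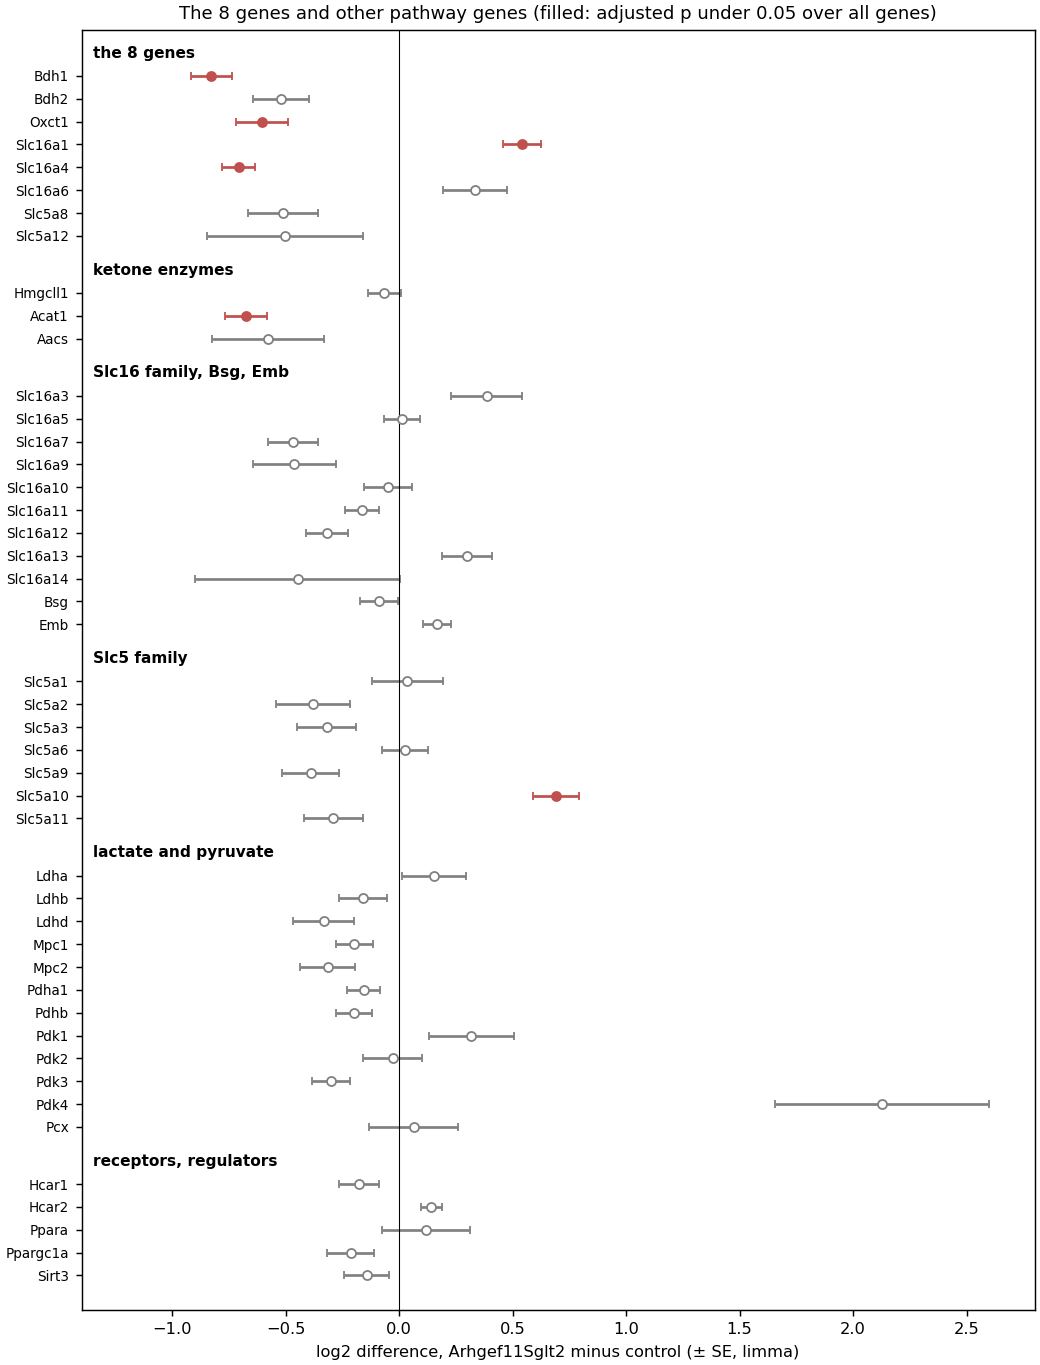
Log2 difference between Arhgef11Sglt2 and control libraries (horizontal axis, ± SE from limma) for the 8 genes and 38 other pathway genes, filled where called over all genes. Besides the 4 called among the 8, Acat1 (-0.68) and Slc5a10 (0.69) were called, and Pdk4 had the largest difference (2.13) with a wide error.

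Profiles over the 8 libraries were compared for the genes among the 8 whose libraries spanned more than 1 on the log2 scale, Bdh1 (1.08) and Slc5a12 (1.77). Among 12276 genes with a mean of at least 100 normalized counts, those closest to Bdh1 were Arhgef19 (root mean square difference 0.07 on the log2 scale), Cyp2j11 (0.09) and Cyp2j5 (0.09), against 0.41 for the profile of Bdh1 around its own mean. The Cyp2j genes belong to a family of similar copies that can share reads. Those closest to Slc5a12 were Kmo, a kynurenine hydroxylase (0.21), Pbld1 (0.23) and G6pc, the catalytic subunit of glucose-6-phosphatase (0.27), against 0.57 around its own mean. These are likenesses over libraries that share the group difference, given as a description.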

How the data were processed

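RNA from 8 mouse kidney samples (5 controls, 3 Arhgef11Sglt2) was sequenced as stranded poly(A) libraries, per the labels' protocols. Salmon 1.10.0, DESeq2 and GRCm39 are named in the submitters' processing notes; their annotation and gene filter are not stated there. Per the file's values, the authors' deposited table gives log2 expression of 15948 genes. All columns share a minimum of 8.1275, read as the value of a zero count on a variance-stabilized scale, and the closed form was inverted from it to give normalized counts. That scale compresses log2 differences of low genes, so folds are ratios of mean normalized counts. Low values within 0.02 steps of whole reads made up 13.8% to 52.3% per library (4% by chance), so no count model was used.

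Gene symbols came from a reference table and matched 15902 identifiers (99.71%). Limma 3.58.1 (R 4.3.3) was fitted with group as the only term, a variance trend and Benjamini-Hochberg adjustment at 0.05 over all genes, and was tested on simulated data. The 8 genes and all lists were chosen with earlier results of these data known. Other genes named are Arhgef11, Slc5a2, called genes of the 5 pathway lists or up to 4 per list with the smallest p, marker genes where a list is described, and the 3 nearest profiles per gene with a wide span; Bsg, Ldha, Ldhb, Slc16a3, Slc16a9 and Slc16a14 are named beyond it, after seeing their values. Some genes of the enzyme and carrier lists are not reported here. Alternatives covered the filter, variance prior, array weights, scale, library totals, replicate number, library number range and each library left out.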

Additional observations from a re-analysis of the deposited data

Results flagged for a closer look

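Among the 5 controls, 3 of the 47 genes checked had 1 library far from the other controls. Chance gives about 1 group in 20, so this number is near the chance share and marks no library as unusual. Bdh1 was 4829 normalized counts in control 1, against 5581 in the nearest control and 5856 in the highest. Pdk3 was 1436 in control 1, against 1702 in the nearest and 1761 in the highest. Slc16a9, a family member linked to carnitine, was 4435 in control 2, against 6297 in the nearest and 6732 in the highest. Control 1 was also the lowest control for Slc5a8 (6418) and Slc5a12 (13088).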

How the results depend on the processing

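Of the 8 genes, 4 were called under all 7 alternatives that changed the filter, the variance prior, array weights, the scale or the library totals, 5 with the library number range as a term, and 2 to 5 when 1 library was left out. The other pathway genes called were 2, became 4 with array weights, and ranged from 0 to 5 when 1 library was left out. The whole table's calls went from 354 to 874 with array weights and from 24 to 1334 when 1 library was left out. With a replicate block the calls were 0 in the whole table (limma, 2166 genes at an unadjusted p under 0.05), 0 among the 8 genes and 0 among the other pathway genes. Controls 4 and 5 have no same-numbered partner, so in that fit they add nothing to the group difference or to its spread. Little is then left to estimate the spread, so 0 calls is not read as a result about the genes. Same-numbered samples share only a number: their deviations correlated at -0.17, -0.09 and -0.01, so the block is no test of pairing. In the replicate block the log2 difference was -0.01 for Arhgef11 and -0.32 for Slc5a2. Arhgef11 turned to 0.027 with array weights and ranged from -0.102 to 0.079 when 1 library was left out, and it was past the threshold in none. Of 160 values of the 8 genes under alternatives, 141 moved by less than the spread between libraries, 19 by more, and no called gene changed sign. Among the genes not called, Slc5a12 turned to 0.16 with array weights. Relative to the early proximal marker mean, Bdh2, Slc5a8 and Slc5a12 turned to 0.05, 0.06 and 0.07. In that setting all 8 genes moved by more than the spread between libraries. The cause was not tested. Low counts limit the precision of Hcar2, at 8.03 to 33.5 normalized counts. The array weights, left-out libraries and replicate block were planned, while the values within number ranges and relative to early proximal markers were added after the data had been seen.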

Other observations

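Some carriers outside the 8 genes had 1 library far from its group. Slc16a3, the lactate exporter MCT4, had 65 to 110 normalized counts in the controls and 170, 81 and 399 in Arhgef11Sglt2 replicates 1, 2 and 3 (limma adjusted p = 0.197). Slc16a14 had 1207, 842, 3352, 1304 and 1758 in the controls and 1993, 1638 and 199 in the Arhgef11Sglt2 libraries, so its highest value was a control and its lowest was Arhgef11Sglt2 replicate 3 (limma adjusted p = 0.609).

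Fat cell markers (Adipoq, Plin1 and Cidec) summed to 3 to 1047 normalized counts in the controls and 91 to 347 in the Arhgef11Sglt2 libraries, with Adipoq and Plin1 at 0 in some libraries and no call.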
